A study of Mus musculus with 3 samples.

Results

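The genes described here are 10 skeletal sarcomere genes, chosen by symbol out of the 32285 genes listed for each section: Myh3, Myh8, Acta1, Actc1, Myl1, Mylpf, Tnnt1, Tnnt3, Tnnc2 and Sln. All 10 were found in the files and all 10 passed the filter on low values used for the tests. The study placed frozen 10 µm sections of mouse embryo, labelled as axial skeleton, on Visium arrays, which tag polyadenylated RNA with a spot barcode and a unique molecular identifier (UMI). There was 1 section for each of 3 stages, in embryonic days: E11.5, then E12.5, then E13.5. The sample title at E11.5 also carries the word zhengpei, which the titles at E12.5 and E13.5 lack. Its meaning was not worked out here, so the sampled tissue may differ by label at E11.5. The sources used here do not give the strain, genotype or sex, or say whether the sections came from separate embryos, and no treatment is labelled. Each kind of spot below shares that unstated background. With 1 section per stage, stage and section cannot be told apart, so values are compared between stages without a test.

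A sarcomere is the contractile unit of striated muscle, in which myosin filaments pull on actin filaments when calcium binds the troponin complex. Most of its proteins exist as isoforms from separate genes, and in mammals embryonic and perinatal myosin heavy chains precede the adult ones. Cardiac isoforms are also made for a time in developing skeletal muscle, and skeletal isoforms in the developing heart. Among the members, Myh3 and Myh8 encode the embryonic and perinatal myosin heavy chains, Acta1 and Actc1 the skeletal and cardiac alpha-actins, and Myl1 and Mylpf the fast skeletal essential and regulatory myosin light chains. Tnnt1 and Tnnt3 encode the slow and fast skeletal troponin T, Tnnc2 the fast skeletal troponin C, and Sln encodes sarcolipin, a small inhibitor of the sarcoplasmic reticulum calcium pump.

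Spots are 55 µm across and can hold several cells of different types. Of the spots, 1561, 1014 and 1360 in order of stage had at least 1000 UMIs and were kept (2, 0 and 5 were left out), with 44358610, 25490744 and 28750314 UMIs in all and a median of 27048, 24386 and 20944 UMIs per spot. The pairs of sections shared 434, 704 and 696 spot barcodes, which mark the same array positions on each array and not the same tissue. Certain kinds of spot were set apart in each section by genes outside the members. Myog-high spots were the top 5% by Myog, the myogenic regulator of differentiating muscle cells, with at least 2 Myog UMIs, and numbered 51, 49 and 67. Myl7-high spots held at least 10 UMIs of Myl7, the atrial regulatory light chain that marks early heart muscle, per 10000 UMIs, and numbered 103, 0 and 85, so that the E12.5 section had none. The remaining 1404, 965 and 1208 spots are called other spots, and 3 spots at E11.5 that met both rules were left out of every kind. The sections at E11.5 and E13.5 thus held heart muscle beside the labelled skeleton. Levels are UMI counts scaled to a total of 1e+06 (CPM) of the summed spots, with exact Poisson 95% intervals, which cover counting error only. Since UMIs are counted once per tagged molecule end, CPM are not per gene length, and ratios between genes are ratios of UMIs.

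The Myog rule took in unlike spots at the 3 stages. At E11.5 only 7.50% of spots had a Myog UMI, the class held every spot with 2 or more that was not also Myl7-high, and its lowest spot had 0.424 Myog UMIs per 10000, against a median of 1.79 over the class. At E12.5 the lowest was 6.47 and the median 8.34, and at E13.5 they were 8.24 and 9.52. Just outside the class, spots with a single Myog UMI reached 0.840, 9.69 and 9.0 per 10000. The Myl7 rule had its lowest spots at 10.0 and 10.3 and its highest outsiders at 9.90 and 9.82 Myl7 UMIs per 10000 at E11.5 and E13.5. The Myog and Myl7 levels that chose the spots are not results here.

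Over all spots, the 10 genes together took up 653, 1539 and 9207 CPM in order of stage, or 0.0653%, 0.154% and 0.921% of all UMIs. The embryonic myosin Myh3 stood at 12.4, 168 and 929 CPM, and the perinatal Myh8 at 0.744, 16.8 and 372 CPM. Myh8 had the fewest UMIs of all members at E11.5, 33 in 20 of 1561 spots, and its level at E13.5 was 500 times that at E11.5. Acta1 stood at 39.1, 173 and 1424 CPM, and Actc1 at 445, 348 and 1510 CPM, so that Actc1 was the one member with a lower level at E12.5 than at E11.5. The light chains reached 34.6, 164 and 1053 CPM for Myl1 and 31.1, 310 and 1836 CPM for Mylpf. Of the thin-filament regulators, Tnnt1 stood at 72.0, 210 and 681 CPM, Tnnt3 at 3.16, 17.8 and 331 CPM, and Tnnc2 at 9.22, 74.1 and 624 CPM, while Sln stood at 5.57, 58.4 and 449 CPM.

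At E12.5 against E11.5, 9 of 10 members were at least 2 times higher, beside 6.47% of the 14890 genes with at least 50 UMIs over both sections, and 0 were at least 2 times lower, beside 3.4%; the members' median ratio was 6.84 and that of all those genes 1.14. At E13.5 against E12.5, 10 of 10 were at least 2 times higher, beside 10.5% of genes (8.06% were lower), with ratios between 3.25 for Tnnt1 and 22.1 for Myh8 and a median of 7.05. At E13.5 against E11.5 the 10 of 10 stood beside 14.6% of genes (7.96% were lower), with a median ratio of 63.4 and the lowest ratio, 3.39, for Actc1. The values of Actc1, of other members and of the sum depended on the heart spots of the first section. At E11.5 Myl7-high spots held 16896 of 19759 Actc1 UMIs, 862 of 1533 for Myl1, 843 of 1734 for Acta1 and 1578 of 3192 for Tnnt1. They held 71 of 247 for Sln, 17 of 140 for Tnnt3, 38 of 1378 for Mylpf, 5 of 552 for Myh3, 1 of 409 for Tnnc2 and 0 of 33 for Myh8. With Myl7-high spots left out, the level at E12.5 was 5.01 times that at E11.5 for Actc1, against 0.781 times with them, and 7.26 times for the members' sum, against 2.36 times with them. A higher level in these sections can come from more muscle in the cut plane or from more RNA per muscle cell, and the spots do not tell these apart.

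**Figure D1:**
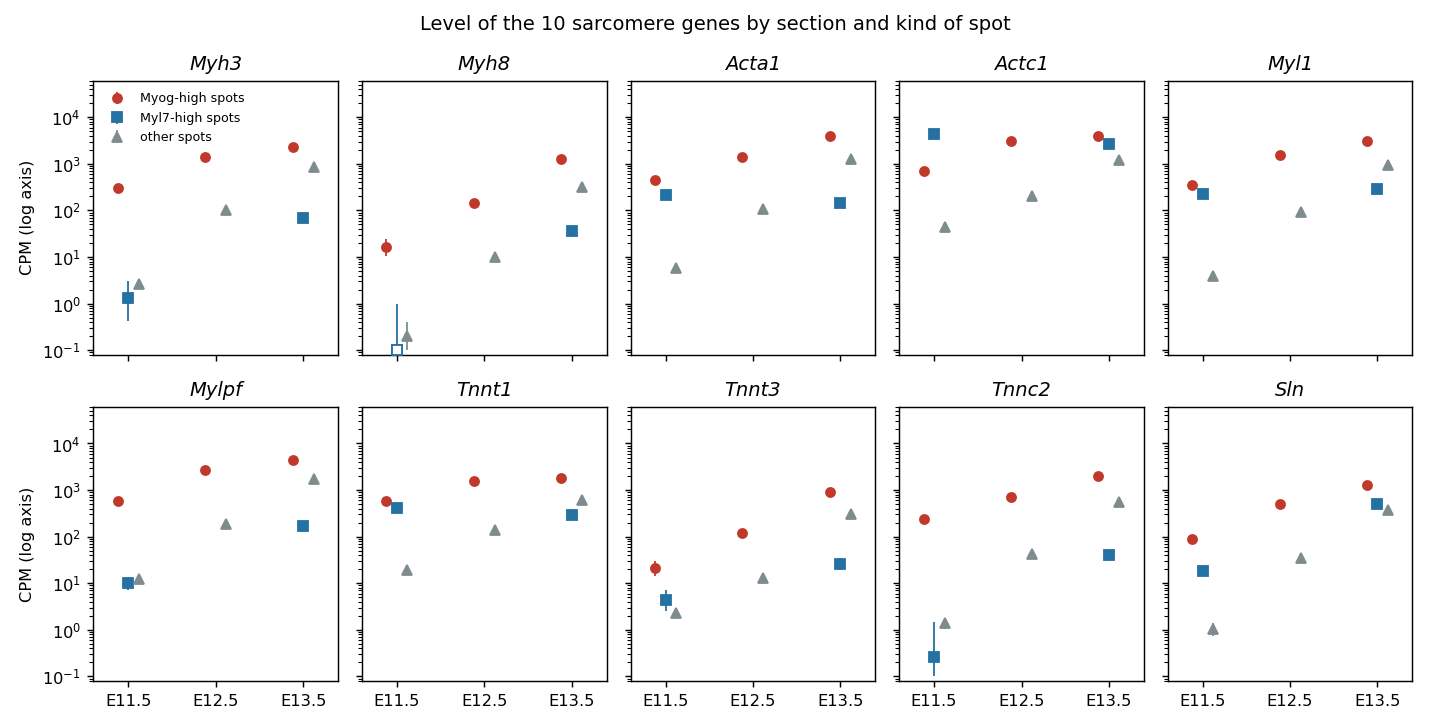
Level of each of the 10 genes in CPM (log axis) at the 3 stages, in Myog-high spots (circles), Myl7-high spots (squares, no such spots at E12.5) and other spots (triangles); bars are exact Poisson 95% intervals, often smaller than the symbol, and the Myh8 square at E11.5 stands for 0 UMIs and is drawn at the edge of the axis. Circles lie above triangles in all panels, while squares lie above circles for Actc1 at E11.5 and far below them for Myh3, Myh8, Mylpf and Tnnc2.

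In the summed Myog-high spots every member had UMIs at every stage, though at E11.5 Myh8 was found in 25.5% and Tnnt3 in 33.3% of the single spots. Their sum was 3296, 13192 and 24957 CPM in order of stage. Myh3 stood at 297 CPM (270 to 326), 1428 CPM (1363 to 1496) and 2264 CPM (2200 to 2328), and Myh8 at 16.7 CPM (10.8 to 24.6), 147 CPM (127 to 170) and 1259 CPM (1212 to 1308). The largest step of Myh8 in CPM thus lay between E12.5 and E13.5, where its ratio was 8.56 and that of Myh3 1.58. The actins stood at 442, 1438 and 3884 CPM for Acta1 and at 703, 3114 and 4031 CPM for Actc1. The light chains stood at 346, 1528 and 3099 CPM for Myl1 and at 575, 2644 and 4361 CPM for Mylpf. Tnnt1 reached 571, 1563 and 1856 CPM, and Tnnt3 21.3, 118 and 917 CPM. Tnnc2 stood at 236, 706 and 2010 CPM, and Sln at 88.7, 504 and 1276 CPM.

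From E11.5 to E12.5, 10 of 10 members were at least 2 times higher in Myog-high spots, beside 4.95% of 7401 genes, between 2.74 times for Tnnt1 and 8.82 times for Myh8. From E12.5 to E13.5, 6 of 10 were, beside 5.27% of 8116 genes, between 1.19 times for Tnnt1 and 8.56 times for Myh8. From E11.5 to E13.5, 10 of 10 were, beside 8.52% of 8330 genes, between 3.25 times for Tnnt1 and 75.6 times for Myh8. In both steps Tnnt1, the slow troponin T, had the lowest ratio and Myh8 the highest. The spread between single Myog-high spots was wide: Mylpf ranged from 0 to 42.2 UMIs per 10000 at E11.5 with a median of 0.95, from 4.2 to 58.6 with a median of 21.6 at E12.5, and from 5.86 to 76.5 with a median of 41.9 at E13.5.

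Set against other spots of the same section, every member was higher in Myog-high spots in 3 of 3 sections. At E11.5 the members' sum was 3296 CPM in Myog-high spots and 93.2 CPM in other spots, at E12.5 13192 and 941 CPM, and at E13.5 24957 and 8189 CPM. The level in other spots differed more between stages than that in Myog-high spots. Myh3 stood at 297 CPM in Myog-high spots and 2.62 CPM in other spots at E11.5, at 1428 and 103 CPM at E12.5, and at 2264 and 871 CPM at E13.5. In the fit over the 3 sections, fold changes lay between a log2 of 2.66 ± 0.66 (SE) for Tnnt3 and 4.46 ± 0.97 for Tnnc2. None of the 10 members passed an adjusted p of 0.05 in edgeR's quasi-likelihood test, where 0.0305% of 13101 genes did as higher and 0.0992% as lower, and 2414 genes had an unadjusted p under 0.05. The members' adjusted p lay between 0.0656 for Myh8 and 0.281 for Acta1. DESeq2 called 5 of the 10, which were Myh3, Myh8, Mylpf, Tnnc2 and Sln. It also called many more of all genes than edgeR did, as counted near the end.

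The call in that comparison rested on which sections were fitted. Without the E11.5 section 10 of 10 members passed, without the E13.5 section 10 of 10 passed, and without the E12.5 section 0 of 10 passed. The fits without E11.5 or without E13.5 also called many more of all genes than the main fit, as counted near the end. The 10 of 10 is thus not particular to the members. The log2 difference between Myog-high and other spots was smallest at E13.5 for each of the 10 members. For Tnnc2 it was 7.40 at E11.5 and 1.89 at E13.5, and for Acta1 6.28 and 1.58. With other spots limited to those without a Myog UMI, a choice made after seeing the data, 10 of 10 passed, and many more of all genes did too. The log2 fold change was 4.07 for Tnnt3 at the low end and 6.35 for Tnnc2 at the high end.

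The level of the members followed the Myog level of the spot within each section. Outside Myl7-high spots, the members' sum at E13.5 was 1793 CPM in the 387 spots without a Myog UMI and 2827, 6729, 15011 and 23791 CPM in the 4 bins of Myog up to 1, 3, 6 and over 6 UMIs per 10000. At E12.5 the same bins held 211, 487, 2295, 5372 and 12200 CPM. At E11.5 they held 86.3, 403, 1103, 3071 and 12977 CPM, the last 3 from only 16, 9 and 8 spots. In the bin over 6, which few spots reached at E11.5, the members' sum was thus 12977, 12200 and 23791 CPM at the 3 stages, with the first 2 close to each other. Single members differed there. Acta1 stood at 2144 CPM at E11.5 and 1357 CPM at E12.5, Tnnt1 at 1745 and 1470 CPM. Tnnc2 stood at 1060 and 650 CPM. Mylpf and Myl1 were slightly lower at E12.5, while Myh3, Myh8, Actc1, Tnnt3 and Sln were higher. In the 4 lower bins the order of the sum by stage was E11.5, E12.5, E13.5, for example 1103, 2295 and 6729 CPM in the bin over 1 and up to 3. At E13.5 the median depth also climbed over the bins, from 14526 UMIs in spots without Myog to 29994 in the bin over 6. At E12.5 these 2 bins had medians of 24202 and 24542 UMIs. The part of depth in the members' levels by bin was not tested. These bins were chosen after seeing the data.

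**Figure D2:**
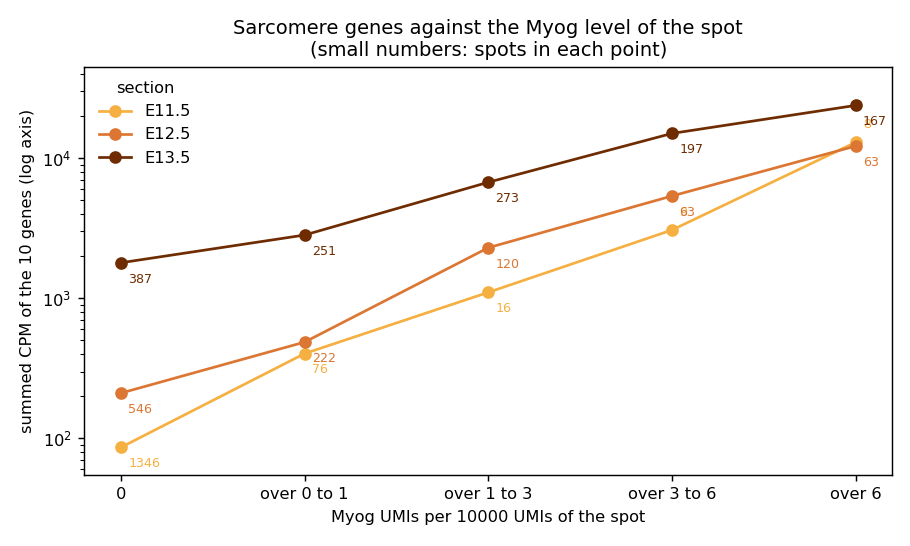
Summed CPM of the 10 genes (log axis) against the Myog level of the spot in UMIs per 10000, with 1 line per section, Myl7-high spots left out; the small number beside each point is its count of spots. All 3 lines climb across the bins, the E13.5 line lies above the others in every bin, and the E11.5 and E12.5 points meet in the highest bin at 12977 CPM (8 spots) and 12200 CPM (63 spots).

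Of the UMIs of Myh3 and Myh8 in Myog-high spots, the part of the embryonic gene was lower, and that of the perinatal one higher, in each later section. Myh3 (ENSMUSG00000020908, chr11:67078273-67102291) and Myh8 (ENSMUSG00000055775, chr11:67277124-67308634) lie on the same chromosome, with 174832 bases and the adult myosin genes Myh2, Myh1 and Myh4 between them (GRCm38.p6). In Myog-high spots there were 17.8 Myh3 UMIs per Myh8 UMI at E11.5 (95% interval 11.9 to 27.8, from 445 and 25 UMIs), 9.71 at the next stage (8.34 to 11.4) and 1.80 at E13.5 (1.71 to 1.88). As a share of the pair Myh3 made up 94.7%, 90.7% and 64.3%. The counting intervals of the 3 stages did not overlap, which says nothing of the spread between embryos. The genes share similar sequence, and reads that matched more than 1 of them could be lost in the authors' counting. The part of such reads in the ratio and in its change over stages was not tested.

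The other myosin heavy chain genes filled in the rest. Of the UMIs of 7 such genes in Myog-high spots, Myh3 held 65.4%, 75.2% and 55.2%, and Myh8 held 3.68%, 7.74% and 30.7%. Myh7, the slow and cardiac beta heavy chain, held 27.2%, 16.3% and 12.9%. The same spots held 94, 0 and 67 UMIs of Myl7 and 20, 9 and 68 of Myh6. The part of heart RNA in the Myh7 share was not tested. The adult fast genes were nearly silent: in Myog-high spots the UMIs of the 3 stages were 3, 6 and 24 for Myh1, 0, 1 and 2 for Myh2, and 2, 3 and 14 for Myh4, where Myh3 had 445, 1777 and 4831.

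At E13.5 the share also differed between spots of the section. Over 66 Myog-high spots with at least 10 UMIs of the pair, the Myh3 share had a median of 66.6% and ran from 32.8% to 97.0%. Myh8 exceeded Myh3 in 7 of these 66 spots and in 33 of 568 spots of the whole section, against 0 of 122 at E12.5 and 0 of 13 at E11.5. Against the Myog level the share was not even: Myh3 held 73.7%, 75.9%, 78.8% and 76.5% of the pair in the 4 lower bins and 65.1% (64.4 to 65.8) in the bin over 6. At E12.5 the same bin held 90.6% and the bin without Myog 89.0%.

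The promoters of this pair are shown because Myh8 had the highest ratio between stages in Myog-high spots while Myh3, of the same gene cluster, did not. The 250 bases before each start in the RefSeq table (GRCm38.p6, both on the plus strand, chr11:67078050-67078299 for Myh3 and chr11:67276874-67277123 for Myh8) are given with E-box letters, CANNTG, in capitals:
Myh3: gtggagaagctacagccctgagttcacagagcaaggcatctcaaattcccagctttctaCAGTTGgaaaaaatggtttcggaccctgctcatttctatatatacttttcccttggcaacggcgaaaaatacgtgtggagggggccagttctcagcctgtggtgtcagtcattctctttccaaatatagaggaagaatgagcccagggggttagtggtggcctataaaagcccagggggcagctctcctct
Myh8: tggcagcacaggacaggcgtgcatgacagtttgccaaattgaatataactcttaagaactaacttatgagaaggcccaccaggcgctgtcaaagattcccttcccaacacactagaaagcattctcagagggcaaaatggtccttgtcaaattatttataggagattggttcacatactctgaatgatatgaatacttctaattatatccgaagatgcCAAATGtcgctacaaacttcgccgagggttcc
Each window held 1 match to CANNTG, the letters that myogenic regulators of the MyoD family bind, 191 bases before the start in Myh3 and 32 in Myh8. TATAAA stood 29 bases before the start of Myh3 on the strand shown. In Myh8 it was matched 96 bases before the start on the opposite strand only, as tttata in the letters shown. A MEF2 site, the motif of the MEF2 factors, was found in Myh8 alone, where it overlaps that TATAAA match. Both strands were searched.

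Of the UMIs of Tnnt1 and Tnnt3 in Myog-high spots, the part of the slow gene was likewise lower in each later section. In Myog-high spots there were 26.8 Tnnt1 UMIs per Tnnt3 UMI at E11.5 (18.8 to 39.4, from 856 and 32 UMIs), 13.2 at E12.5 (11.2 to 15.8) and 2.02 at E13.5 (1.92 to 2.14). The Tnnt1 share of the pair was 96.4%, 93.0% and 66.9%. Other spots had another first step, with 8.04 Tnnt1 UMIs per Tnnt3 UMI at E11.5, 11.1 in the E12.5 section and 2.01 in the last. Counting Tnnt2, the cardiac troponin T, as well, the 3 genes held 80.0%, 78.5% and 51.2% for Tnnt1, 17.0%, 15.6% and 23.5% for Tnnt2, and 2.99%, 5.93% and 25.3% for Tnnt3. Tnnt1 remained above Tnnt3 in 67 of 67 Myog-high spots at E13.5, with shares of 51.9% to 90.9%. Over the whole E13.5 section Tnnt3 exceeded Tnnt1 in 18 of 558 spots with at least 10 UMIs of the pair. Unlike the myosin share, the Tnnt1 share at E13.5 stayed between 65.3% and 68.4% across all 5 Myog bins.

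The other thin-filament and light chain families had courses of their own. Tnni2, the fast troponin I and no member, held 6.05%, 11% and 38.9% of the troponin I UMIs of Myog-high spots. Tnnc2 held 55.1%, 37.9% and 64.5% of the troponin C UMIs, the rest being Tnnc1, the slow and cardiac gene, so its share was lowest at E12.5. Among essential light chains Myl1 held 47.7%, 55.0% and 57.7%, the embryonic and atrial Myl4 holding most of the rest. Mylpf held 87.2%, 99.9% and 98.2% of the regulatory light chains. These include Myl7, by which the heart spots were chosen, with 94, 0 and 67 UMIs in Myog-high spots. At E11.5 Myl7 stood at 62.7 CPM there and 60.8 CPM in other spots. The part of heart RNA in this share, and in those of the troponins and essential light chains, was not tested.

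**Figure D3:**
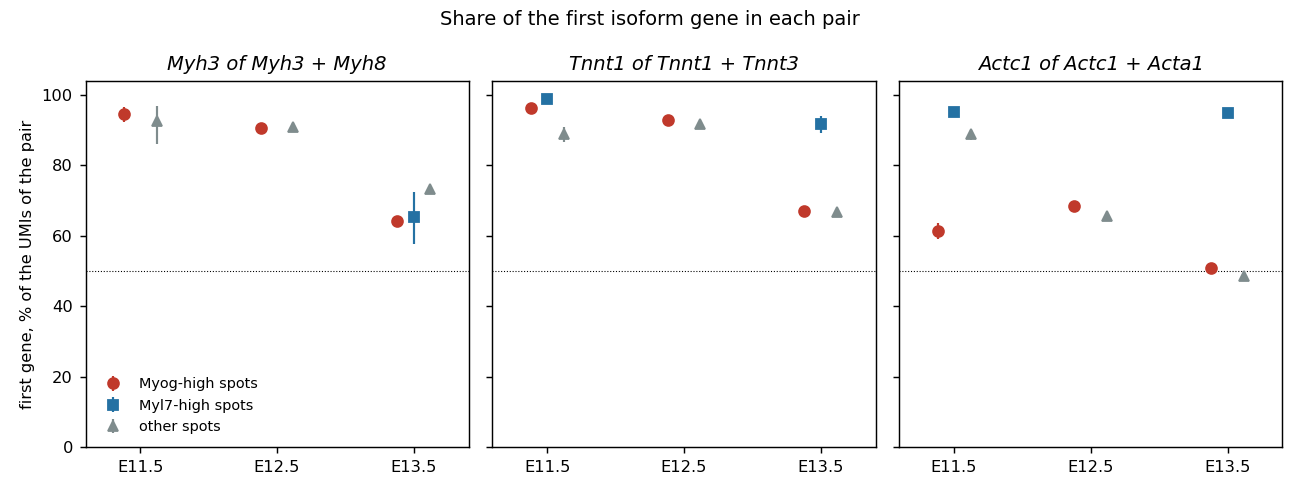
Share of the first gene of each isoform pair, in % of the UMIs of both genes, at the 3 stages in Myog-high spots (circles), Myl7-high spots (squares) and other spots (triangles); bars are exact 95% binomial intervals, points need at least 10 UMIs of the pair, and the dotted line marks equal UMIs. Myh3 and Tnnt1 shares are lowest at E13.5 in Myog-high spots (64.3% and 66.9%), and the Actc1 share of Myl7-high spots stays at 95.2% and 94.8%.

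The actins followed another course. In Myog-high spots there were 1.59 Actc1 UMIs per Acta1 UMI at E11.5 (1.44 to 1.75), 2.17 in the E12.5 section (2.05 to 2.29) and 1.04 in the E13.5 section (1.01 to 1.07), so that both genes were near equal in the last section. In other spots at E13.5 the ratio was 0.941 (0.926 to 0.956), with Acta1 ahead. Acta1 exceeded Actc1 in 28 of 67 Myog-high spots at E13.5, in 0 of 48 at E12.5 and in 3 of 28 at E11.5. The E11.5 spots were uneven: the median spot had an Actc1 share of 87.1%, a ratio of 6.74, while the 8 spots with over 6 Myog UMIs per 10000 had a summed share of 53.9% (51.0 to 56.8). At E12.5 the same bin held 67.6% (66.4 to 68.7) and at E13.5 49.8% (49.3 to 50.3). Actin genes resemble each other closely in their coding sequence, and the caution on reads that match more than 1 gene holds for them too.

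**Figure D4:**
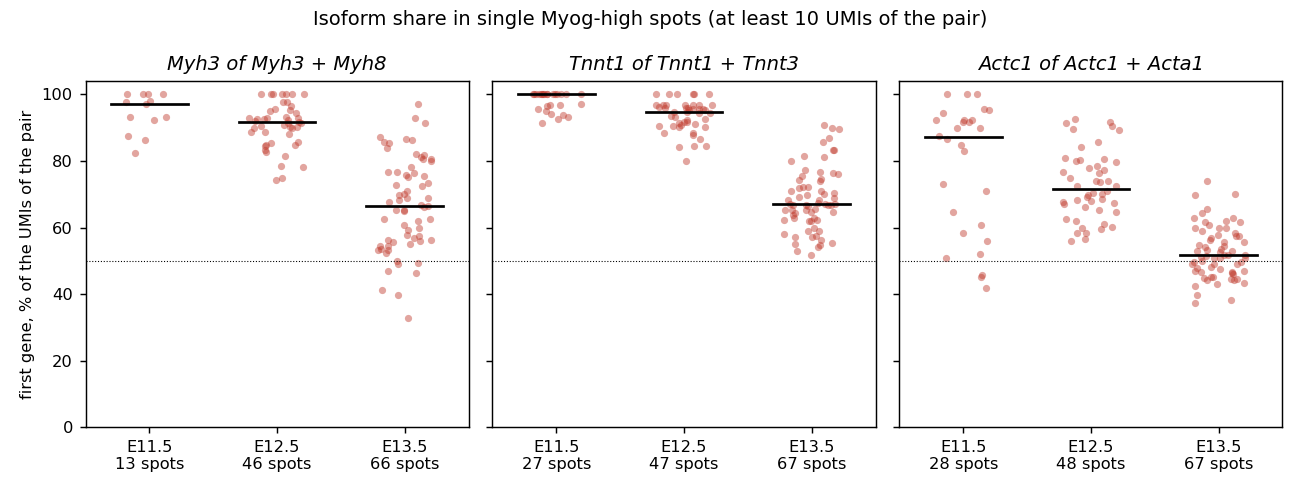
Share of the first gene of each pair in single Myog-high spots with at least 10 UMIs of the pair, by stage; each dot is a spot, the bar is the median and the dotted line marks equal UMIs. The Myh3 and Tnnt1 shares spread most widely at E13.5, with medians of 66.6% and 67.1%, while the Actc1 share at E11.5 runs from 41.8% to 100% with a median of 87.1%.

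The promoters of the actin pair are shown because they share a motif that is rare among all promoters. The 250 bases before each start (GRCm38.p6, both on the minus strand, chr8:123894776-123895025 for Acta1 and chr2:114052876-114053125 for Actc1) have CANNTG and the CArG box, the motif of serum response factor, in capitals:
Acta1: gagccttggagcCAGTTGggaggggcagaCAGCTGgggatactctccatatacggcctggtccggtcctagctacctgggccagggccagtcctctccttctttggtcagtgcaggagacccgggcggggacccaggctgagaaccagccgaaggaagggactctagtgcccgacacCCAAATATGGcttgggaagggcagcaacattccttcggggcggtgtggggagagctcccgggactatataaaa
Actc1: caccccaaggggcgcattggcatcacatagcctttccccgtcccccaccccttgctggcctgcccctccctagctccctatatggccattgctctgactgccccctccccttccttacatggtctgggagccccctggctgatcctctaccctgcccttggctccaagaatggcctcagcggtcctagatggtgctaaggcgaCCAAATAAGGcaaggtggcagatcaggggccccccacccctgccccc
The CArG box stood 73 bases before the start of Acta1 and 47 before that of Actc1. Of the 8 members matched to the table, only these 2 held one, against 1.47% of all 32851 promoters of the table in the same window. Acta1 also held 2 matches to CANNTG, 1 of which reads CAGCTG, and Actc1 held none. CANNTG was found in 7 of the 8 members and in 66.2% of all promoters, CAGCTG, a special case of it, in 3 and in 13.0%, TATAAA in 5 and in 12.4%, and the MEF2 site in 1 and in 2.92%. A match is a description of letters and not a bound site, and no match says only that these letters are not in this window. Tnnt3 and Sln are named only.

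Heart spots held a different subset of the members. At E11.5 the members' sum was 5297 CPM in Myl7-high spots and 93.2 CPM in other spots, and Actc1 alone made up 4406 CPM of it (45 CPM in other spots). Tnnt1 stood at 412 CPM in Myl7-high and 18.8 CPM in other spots, Myl1 at 225 and 3.88 CPM, Acta1 at 220 and 5.68 CPM, and Sln at 18.5 and 1.03 CPM. The remaining members had few UMIs there: Myh3 had 5 UMIs in the 103 Myl7-high spots, Tnnc2 had 1, and Myh8 had 0, which allows up to 0.782 CPM (3 UMIs of the total). Mylpf, with 38 UMIs, stood at 9.91 CPM in Myl7-high and 12.3 CPM in other spots, and Tnnt3 at 4.43 and 2.34 CPM.

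At E13.5 the picture in Myl7-high spots was another. The members' sum was 4214 CPM in Myl7-high spots and 8189 CPM in other spots. Actc1 stood at 2632 CPM in Myl7-high spots and 1221 CPM in other spots, and Sln at 507 and 374 CPM, whereas the other 8 members were lower in Myl7-high spots. Acta1 stood at 145 CPM in Myl7-high and 1297 CPM in other spots, Tnnt1 at 298 and 605 CPM, and Myl1 at 292 and 928 CPM. The heart spots of both sections also differed in genes outside the members. At E11.5 they held 4243 CPM of Myl2, the ventricular regulatory light chain, 3269 CPM of Myh7 and 842 CPM of Myh6, the alpha heavy chain of atrial muscle. At E13.5 they held 23.8, 35.3 and 3295 CPM of the same genes, so the stage of the heart and the part of the heart in the section cannot be told apart.

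Neural spots served as the background, since neural tissue should lack these genes. They were the top 10% of spots of each section by 6 neural genes, 156, 101 and 136 spots, of which 13 at E13.5 were also Myl7-high. The E13.5 neural spots held 595 CPM of Myl7, against 76.8 CPM in other spots, so heart RNA is part of that background. Skeletal muscle RNA is part of it too. The members summed to 1795 CPM in E13.5 neural spots and to 48.9 CPM in E11.5 neural spots, and Myog stood at 34.4 and 0.381 CPM. After thinning to 5000 UMIs per spot, 97.9% of Myl7-high spots at E11.5 had an Actc1 UMI, 69.3% a Tnnt1, 53.6% a Myl1, 47.4% an Acta1, 8.78% a Sln and 2.44% a Tnnt3 UMI, against 8.82%, 4.47%, 1.08%, 1.87%, 0.0795% and 0.300% of neural spots. Unthinned, 100%, 97.1%, 85.4%, 78.6%, 30.1% and 11.7% of Myl7-high spots had one, against 44.2%, 26.3%, 5.77%, 10.3%, 0.641% and 2.56% of neural spots. Median depths before thinning were 34993 UMIs in Myl7-high and 34612 in neural spots. Myh3, Mylpf and Tnnc2 were found in a smaller share of Myl7-high than of neural spots, and Myh8 in 0 of both, and these 4 are read as background in the E11.5 heart spots. Unthinned, Mylpf was found in 31.1% of Myl7-high and 30.1% of neural spots.

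At E13.5, 6 members were at or below the neural level in Myl7-high spots after thinning: Myh3 at 28.6% of Myl7-high and 49.9% of neural spots, Myh8 at 18.4% and 21.7%, Acta1 at 50.5% and 63.5%, Mylpf at 54.6% and 82.4%, Tnnt3 at 12.8% and 21.9%, and Tnnc2 at 18.8% and 33.3%. Their CPM were lower than in neural spots too. These values do not show whether heart muscle made the 6 genes, since skeletal muscle RNA is part of the neural background. Actc1 at 95.3% of Myl7-high and 70.6% of neural spots, Sln at 62.6% and 27.0%, Tnnt1 at 61.3% and 43.8%, and Myl1 at 61.1% and 49.4% were above it. Unthinned shares in Myl7-high and neural spots were 98.8% and 94.9% for Actc1, 83.5% and 62.5% for Sln, 84.7% and 80.1% for Tnnt1, and 87.1% and 92.6% for Myl1, the last in the opposite order. Median depths were 19404 and 21692 UMIs. Acta1 was thus well above the neural level in heart spots of the E11.5 section and below it in those of the E13.5 section. Its level in heart spots was 220 and 145 CPM in these sections, while that in neural spots was 3.43 and 231 CPM.

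Set per UMI of Mylpf, which heart spots held at or below the neural level, the same 4 genes stood out at E13.5. There were 15.4 Actc1 UMIs per Mylpf UMI in Myl7-high spots and 0.706 in other spots, 2.96 and 0.216 for Sln, 1.74 and 0.350 for Tnnt1, and 1.70 and 0.537 for Myl1. For the other 5 the ratios in Myl7-high and other spots were 0.847 and 0.750 for Acta1, 0.395 and 0.504 for Myh3, 0.210 and 0.184 for Myh8, 0.231 and 0.314 for Tnnc2, and 0.153 and 0.174 for Tnnt3. At E11.5, where Mylpf had only 38 UMIs in Myl7-high spots, there were 22.2 Acta1 UMIs per Mylpf UMI in Myl7-high spots and 0.463 in other spots. These ratios were chosen after seeing the data.

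**Figure D5:**
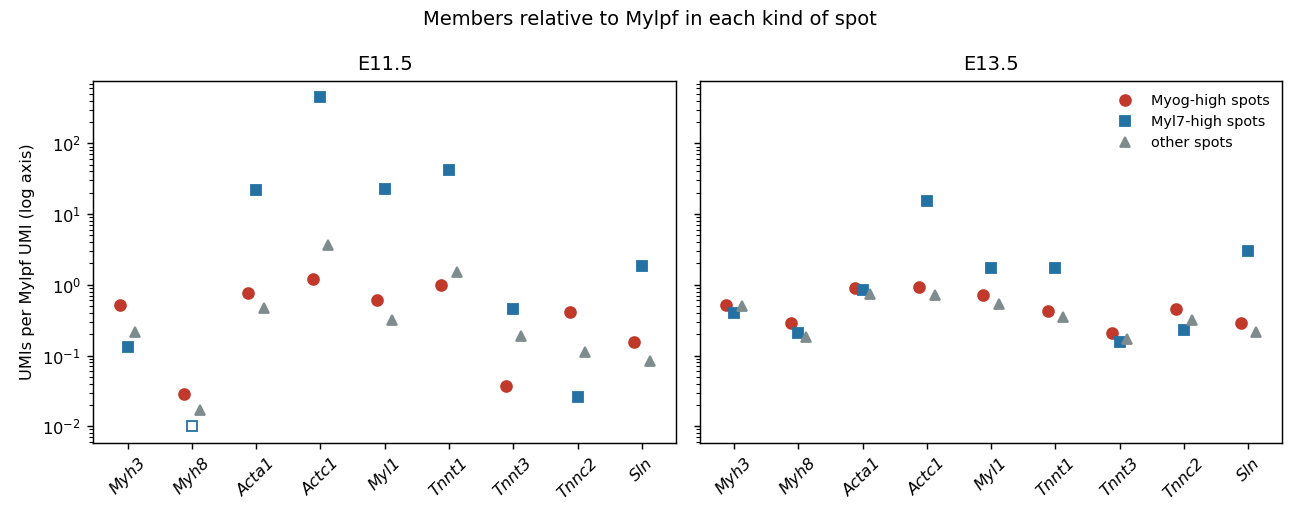
UMIs of each member per Mylpf UMI (log axis) at E11.5 and E13.5 in Myog-high spots (circles), Myl7-high spots (squares) and other spots (triangles); the open square is Myh8 with 0 UMIs, drawn at the low edge. At E13.5 squares stand apart from the other symbols for Actc1 (15.4), Myl1 (1.70), Tnnt1 (1.74) and Sln (2.96) and lie near them for the other 5 genes, below both for Myh3 (0.395), Tnnc2 (0.231) and Tnnt3 (0.153).

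Between Myl7-high and other spots no member passed edgeR's quasi-likelihood test at an adjusted p of 0.05 in either direction, where 2.5% of 13101 genes passed as higher and 0.985% as lower and 2640 genes had an unadjusted p under 0.05. Actc1 had a log2 fold change of 4.67 ± 1.30 (SE, adjusted p = 0.110), was higher in 2 of 2 sections with heart, and was the 1 member that DESeq2 called. Acta1 stood at 1.43 ± 1.97 (adjusted p = 0.736) with opposite directions in the sections, 5.27 at E11.5 and -3.16 at E13.5 on the log2 scale. Its level in other spots was 5.68 and 1297 CPM in these sections, and that in Myl7-high spots 220 and 145 CPM. Without the E11.5 section Acta1 was lower in Myl7-high spots (log2 fold change -2.64, adjusted p = 0.0197, edgeR), and without the E13.5 section it was higher (4.74, adjusted p = 5.55e-06). Each of these fits had 1 Myl7-high sum left, which is assumed to vary like the other kinds of spot, and 1 residual degree of freedom, so the direction is not replicated. In the fit without the E13.5 section, under the same assumption, Acta1, Actc1, Myl1, Tnnt1 and Sln were called as higher, as were many other genes.

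Between Myog-high and Myl7-high spots 4 of 10 members were higher in Myog-high spots at an adjusted p under 0.05 in edgeR's test, beside 1.81% of 13101 genes, and 0 were lower, beside 2.89%. Myh3 stood at 297 CPM in Myog-high and 1.30 CPM in Myl7-high spots at E11.5 and at 2264 and 67.6 CPM at E13.5 (log2 fold change 6.82 ± 1.32, SE, adjusted p = 0.0405). Myh8 stood at 16.7 and 0 CPM at E11.5 and at 1259 and 35.9 CPM at E13.5 (6.20 ± 1.05, adjusted p = 0.0276). Mylpf stood at 575 and 9.91 CPM and at 4361 and 171 CPM (5.56 ± 0.99, adjusted p = 0.0316), and Tnnc2 at 236 and 0.261 CPM and at 2010 and 39.6 CPM (7.54 ± 1.41, adjusted p = 0.0381). Each was higher in 2 of 2 sections that held both kinds, the fold changes of Myh8 and Tnnc2 resting at E11.5 on 0 and 1 UMI in heart spots.

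Tnnt3 missed the threshold (4.26 ± 1.08, adjusted p = 0.0740), and DESeq2 called it beside those 4 (adjusted p = 0.0406). Actc1 was the one member whose fold change was below 0 (-1.62 ± 1.25, adjusted p = 0.486), with 703 CPM in Myog-high and 4406 CPM in Myl7-high spots at E11.5 and 4031 and 2632 CPM at E13.5. Acta1, Myl1, Tnnt1 and Sln had log2 fold changes of 1.77, 1.27, 1.07 and 1.92 and adjusted p of 0.257 or more. Without the E12.5 section, the fit that kept both sections with heart, 0 members differed. The fits without E11.5 or without E13.5 each rest on 1 Myl7-high sum, assumed to vary like the other kinds of spot, and are not read here. Without the section as a block, 0 of the 4 calls held.

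Other genes of the muscle programme were counted from lists. Of 14 myogenic regulators and fusion genes tested, 1 was higher in Myog-high than in other spots, Msc, a bHLH repressor of muscle differentiation (log2 fold change 2.51, adjusted p = 0.0465), and the list's median was 2.87, against -0.01 over all genes. Of all 13101 genes, 0.0305% were higher in this comparison. Msc stood at 32.0, 66.7 and 114 CPM in Myog-high spots and 3.96, 9.65 and 39.3 CPM in other spots at the 3 stages. The 14 genes summed to 478 CPM in Myog-high spots of the E11.5 section and to 103 CPM in its other spots. Of 16 other skeletal sarcomere genes, 13 genes of excitation-contraction coupling and 7 of the neuromuscular junction, 0 passed, with medians of 2.91, 2.59 and 3.08 and, as the most abundant of each, Tpm2 at 2.4, Atp2a2 at 0.61 and Chrng at 3.47. Of 17 sarcomere genes shared with the heart 0 passed (median 2.67), and of 15 heart genes 0 (median 0.29).

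Against Myl7-high spots, 8 of the 14 regulators and fusion genes were higher in Myog-high spots, beside 1.81% of 13101 genes. The list's median was 6.06, against 0.02 over all genes. Among the 8 were Myod1, a master regulator of the muscle lineage (7.53), Mymx, a myoblast fusion protein (7.46), Cdh15, the muscle cadherin (6.70), and Chrna1, an acetylcholine receptor subunit (6.32). Of the coupling genes 4 were higher, among them Mrln (6.31) and Ryr1, the calcium release channel (5.38), and Atp2a2, the slow and cardiac calcium pump, was lower (-1.75). Of the junction genes Chrnd and Chrng were higher, and of the other sarcomere genes Myot and Actn3. Of the 15 heart genes 9 were lower, among them Pln (-8.37), Nppa (-7.66), Mybpc3 (-6.90) and Tbx20 (-6.68), of 6 smooth muscle genes 3 (Cnn1, Myh11 and Tagln), and of the 17 shared genes 0. Of all genes 2.89% were lower.

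In Myl7-high against other spots 11 of 15 heart genes were higher (median 5.6, against -0.05 over all genes), led by Myh6 (7.34), Pln (7.30), Nppa (7.30) and Mybpc3 (6.69). Of all 13101 genes, 2.5% were higher in this comparison. Of the 17 shared sarcomere genes 3 were higher (Csrp3, Trim63 and Tpm1), of the coupling genes 3 (Trdn, Jph2 and Atp2a2) and of the smooth muscle genes 3 (Myocd, Cnn1 and Tagln). Of the 16 other skeletal sarcomere genes and 7 junction genes 0 passed.

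Markers of other tissues were counted in the same way. Of 7 erythroid genes 4 were lower in Myog-high than in other spots (median -1.37), Hbb-y, Hba-a1, Hba-a2 and Hba-x, and 7 of 7 were lower than in Myl7-high spots. Of all genes 0.0992% were lower in Myog-high than in other spots, and 2.89% lower than in Myl7-high spots. The erythroid genes summed to 18882, 5526 and 3252 CPM in Myog-high spots. In other spots they summed to 57131, 14419 and 8085 CPM at the 3 stages. Of the 6 neural, 5 tendon, 6 cartilage, 5 endothelial, 5 epidermal and 5 macrophage genes 0 passed in Myog-high against other spots, with medians of -2.64, -0.47, -1.87, -0.78, -1.18 and -0.35, nor did any of the 6 smooth muscle genes (-0.24). In Myl7-high against other spots, of these lists other than smooth muscle, 1 gene passed, Acan of cartilage, as lower (-2.10), beside 0.985% of all genes. The part of these tissues in the members' levels was not tested.

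Across spots the median correlation between members was higher at the later stages. The median Pearson correlation over the 45 member pairs was 0.50 over 1561 spots at E11.5, 0.83 over 1014 at E12.5 and 0.77 over 1360 at E13.5, on log2(UMIs per 10000 + 1). The lowest pair was Actc1 and Tnnt3 at E11.5 (0.15) and the highest at that stage Myh3 and Tnnc2 (0.86). The genes most like the mean of the members were Synpo2l (0.64), Tnnc1 (0.61) and Actn2 (0.61) at E11.5, Tnnc1 (0.92), Myl4 (0.92) and Tnni1 (0.89) at E12.5, and Tceal7 (0.85), Mybph (0.83) and Myog (0.83) at E13.5. At E11.5 Myh8 was found in only 1.28% of spots, Tnnc2 in 4.87%, Sln in 6.66% and Tnnt3 in 7.24%. The part of low counts and of heart spots in the correlations was not tested. Spots of a section share a library and differ in depth, so these values are descriptions.

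At E13.5 the nearest gene of 6 members was Acta1, which was closest to Mylpf (0.85). Tnnt1 was nearest to Myl1 (0.81). Actc1 and Sln stood apart in this respect: Actc1 was nearest to Myl4 (0.82) and Tnni1 (0.80), both of which heart muscle makes as well, and Sln was nearest to Actc1 (0.78).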

How the data were processed

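Visium libraries of 3 sections were measured, 1 per stage. The deposited values are raw UMI counts, per gene within each spot. Per the file headers, the authors ran Space Ranger 1.2.0. The submitters' processing notes also name STAR and mm10. The STAR version, the annotation release and how spots were selected are not stated there. The members and all gene lists were chosen with earlier results of these data known.

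Spots with at least 1000 UMIs were kept, and no doublet caller was run. Counts were summed per section and kind of spot. The 8 sums were compared with edgeR 4.0.16 (limma 3.58.1, R 4.3.3; quasi-likelihood test, Benjamini-Hochberg adjustment, TMM, filterByExpr, section as block) over 13101 genes, with DESeq2 1.42.0 as an alternative. Spots of a section are not replicates: a class counts once per section, and the p-values measure only the spread between these sections. The kinds of spot of a section come from the same section, which is where the block comes from. Intervals are exact Poisson for CPM, Clopper-Pearson for shares and conditional binomial for ratios, and cover counting error only. Other steps used Python 3.11.15, numpy 2.4.6, scipy 1.17.1, pandas 2.3.3 and matplotlib 3.10.9. The edgeR fit was also run on simulated counts without differences between sections, which does not test it under the spread seen here.

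All 10 members are named. From each list up to 4 genes with the largest fold change among those called are named, or otherwise the gene with most UMIs; some lists name fewer. Likeness was Pearson's r across spots among genes with at least 500 UMIs. Promoters come from the RefSeq table, which matched 8 of the 10 members. The result of the myogenic regulator list in Myl7-high against other spots is not reported here.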

Additional observations from a re-analysis of the deposited data

How the results depend on the processing

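The counts of members called depended on the fit, and the cause was not tested. For Myog-high over other spots, 0 members passed in edgeR, 5 in DESeq2, 8 without the filter on low counts, 1 with the top 10% of spots by Myog, 2 with Myl7-high at 50 UMIs per 10000, 10 with other spots lacking Myog (chosen after seeing the data), and 0 to 10 when a section was left out. For Myl7-high over other spots these were 0, 1, 1, 0, 1 and 3, and 0 to 5 when a section was left out. Between Myog-high and Myl7-high spots 4 passed, 0 without the replicate block (the section), and 0 to 9 when a section was left out. Acta1 in Myl7-high over other spots had a log2 fold change of -2.64 without E11.5 and 4.74 without E13.5. Over all genes, higher and lower calls for Myog-high over other spots were 4 and 13, against 338 and 323 in DESeq2, 290 and 529 unfiltered, 0 and 1 without the block, 682 and 832 without E11.5, 0 and 0 without E12.5, 549 and 802 without E13.5, 0 and 6 in spots with at least 5000 UMIs, 42 and 41 with the top 2% and 72 and 119 with the top 10% by Myog, 141 and 201 with Myl7-high at 50 per 10000, and 389 and 450 with other spots lacking Myog. For Myl7-high over other spots they were 328 and 129, against 719 and 297 in DESeq2, 666 and 408 unfiltered, 105 and 16 without the block, 382 and 208, 64 and 15, and 1470 and 1155 without each section in order of stage, 782 and 396 with Myl7-high at 50 per 10000, and 435 and 199 with other spots lacking Myog. For Myog-high over Myl7-high spots they were 237 and 378, against 532 and 789, 394 and 801, 32 and 101, then 561 and 768, 16 and 57, and 520 and 1168 without each section, and 358 and 651 with Myl7-high at 50 per 10000.

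The members' sum at E12.5 over E11.5 was 2.36, against 2.25 with totals free of globin and mitochondrial genes, 2.07 with median-of-ratios size factors and 7.26 without Myl7-high spots; at E13.5 over E11.5 it was 14.1, against 13.4, 13.3 and 44.8. Actc1 at E12.5 over E11.5 was 5.01 without Myl7-high spots. The Actc1 to Acta1 ratio at E13.5 was 1.10 in the top 2% and 1.00 in the top 10% of spots by Myog. As medians over spots, Myh3 to Myh8 was 32 at E11.5 and 1.99 at E13.5, Tnnt1 to Tnnt3 17.5 at E12.5, and Actc1 to Acta1 6.74 at E11.5 and 2.54 at E12.5; Tnnt1 to Tnnt3 at E11.5 had no such ratio, since the median spot held no Tnnt3. Few UMIs stand behind Myh8 and Tnnt3 at E11.5 (33 and 140 over all spots), fits without E11.5 or E13.5 hold 1 Myl7-high sum, assumed to vary like the other kinds, and 1 section per stage limits every comparison over stages.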

Other observations

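At E13.5 the Myh3 share of Myh3 and Myh8 varied across spots together with genes of other tissues. Over 421 spots with at least 20 UMIs of the pair, Myl7-high spots left out, 4194 genes were ranked by Spearman's rho with that share, a description over spots of 1 library that was added after seeing the data. Col12a1 (rho 0.50), Tnmd (0.47) and Scx (0.43), genes of tendon and connective tissue, and Col2a1 (0.45), the cartilage collagen, were among those highest where the Myh3 share was high. Tnmd stood at 216 CPM in the 107 spots with a Myh3 share of at least 82.8% and 32.0 CPM in the 106 with a share of at most 65.2%, Scx at 269 and 58.5 CPM, and Col2a1 at 1137 and 418 CPM. Ckm, the muscle creatine kinase (rho -0.45), stood at 128 CPM in the high-share and 458 CPM in the low-share spots, and Tnni2 (-0.41) at 306 and 665 CPM. The share also had a rho of -0.25 with the UMIs of the spot and -0.32 with Myog, and the median depth was 25226 UMIs in the high-share and 30630 in the low-share spots; the part of depth and Myog in these values was not tested.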
